A study of Mus musculus with 24 samples.

Results

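The genes described are 9 parts of the phosphoinositide 3-kinase (PI3K) pathway, namely the catalytic subunits Pik3cd and Pik3cg, the regulatory subunits Pik3r1 and Pik3r5, the adaptor Pik3ap1, the inhibitor Pik3ip1, the phosphatase Inpp5d and the kinases Akt1 and Akt2. They were chosen by symbol from a table of exon counts for 24506 genes, and all 9 were found and were among the 14550 genes with enough counts to be tested. The series asks how the transcription factors EBF1 and PAX5 act on the Myc gene in pro-B cells, which are precursors of B cells. RNA came from fetal liver pro-B cells of the C57BL6/J background, cultured on OP9 stromal cells with KIT ligand, FLT3 ligand and interleukin-7 and infected with the retroviral vector pMiG. The 7 groups of 2 libraries were wild type (WT), Ebf1-KO and Pax5-KO with the empty vector, Ebf1-KO with vector-borne Ebf1 or Pax5, and Pax5-KO with vector-borne Ebf1 or Pax5, written below with a plus sign (Ebf1-KO+Pax5). All groups share the culture and the infection, and no uninfected cells were analysed here. The labels give neither the allele that was deleted nor the number of fetuses behind a culture. EBF1 binding was measured by chromatin immunoprecipitation in a different cell, the Abelson-transformed pre-B line 230-238.

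Class I PI3K enzymes phosphorylate a membrane lipid to make PIP3, which draws AKT kinases and other proteins to the membrane. Class IA enzymes pair a catalytic subunit such as p110δ, made from Pik3cd, with a regulatory subunit such as p85α, made from Pik3r1, and act below antigen and cytokine receptors. The class IB enzyme pairs p110γ, made from Pik3cg, with p101, made from Pik3r5, and acts mainly below G protein-coupled receptors. Pik3ap1 encodes BCAP, an adaptor that brings PI3K to the B cell receptor complex. Inpp5d encodes the phosphatase SHIP1, which removes PIP3, and Pik3ip1 encodes a membrane protein that inhibits the catalytic subunits. In B cell precursors the pathway lies below the pre-B cell receptor and the interleukin-7 receptor, and active AKT keeps FOXO transcription factors out of the nucleus.

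The stretch around the annotated start of a gene is where a factor bound at a promoter would lie, so 4 of these stretches are shown. Each runs from 250 bases before to 20 bases after a RefSeq start site (assembly GRCm38.p6, the mm10 build), 5′ to 3′ on the strand of the gene. Pik3ap1 and Akt2 are shown because an EBF1 peak was centred within 1 kb of their starts. Pik3r5 and Pik3ip1 were added after their letters had been read, because each holds 1 match to CCCNNGGG, the core of the palindrome that EBF1 is known to bind, across its start site. Capitals mark the bases under an EBF1 peak in Pik3ap1 and the CCCNNGGG match in Pik3r5 and Pik3ip1, and Akt2 has neither within its stretch.
Pik3ap1 (minus strand, chr19:41385083-41385352): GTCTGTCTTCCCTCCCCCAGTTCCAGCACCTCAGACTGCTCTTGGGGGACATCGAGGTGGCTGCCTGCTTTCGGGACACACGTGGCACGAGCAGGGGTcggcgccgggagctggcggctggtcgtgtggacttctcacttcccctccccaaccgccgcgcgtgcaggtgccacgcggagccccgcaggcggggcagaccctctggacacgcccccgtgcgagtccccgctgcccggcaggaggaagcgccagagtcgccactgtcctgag
Akt2 (plus strand, chr7:27591302-27591571): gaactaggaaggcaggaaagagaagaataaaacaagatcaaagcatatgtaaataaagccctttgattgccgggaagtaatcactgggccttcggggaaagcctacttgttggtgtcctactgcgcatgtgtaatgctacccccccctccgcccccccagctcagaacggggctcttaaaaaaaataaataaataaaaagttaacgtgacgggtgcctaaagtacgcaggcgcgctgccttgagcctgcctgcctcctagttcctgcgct
Pik3r5 (plus strand, chr11:68431875-68432144): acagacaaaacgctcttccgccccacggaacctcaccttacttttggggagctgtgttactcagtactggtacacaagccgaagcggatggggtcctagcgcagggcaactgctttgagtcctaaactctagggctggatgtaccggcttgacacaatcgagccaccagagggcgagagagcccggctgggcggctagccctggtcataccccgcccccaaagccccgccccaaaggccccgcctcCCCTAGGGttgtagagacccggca
Pik3ip1 (plus strand, chr11:3330481-3330750): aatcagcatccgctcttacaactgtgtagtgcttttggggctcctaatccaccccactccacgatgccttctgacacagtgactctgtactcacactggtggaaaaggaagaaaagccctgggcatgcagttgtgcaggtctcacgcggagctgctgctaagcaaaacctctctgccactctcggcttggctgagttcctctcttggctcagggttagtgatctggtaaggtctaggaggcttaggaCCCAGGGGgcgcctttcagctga
The match began 4 bases before the start site in Pik3r5 and 3 bases before it in Pik3ip1. Searched on both strands, CCCNNGGG was present in 13.7% of 32851 RefSeq promoters of 300 bases. All 9 genes had an entry, with 17 promoters between them, of which 4 held it. The other matches lay in a promoter of Akt1 and in one at a further start of Pik3cd, which are not shown. The longer palindrome, with a T before and an A after this core, was found in 0 of the 17 promoters and in 0.904% of all promoters. The Pik3ap1 peak, of 320 bases, covered 98 bases of its promoter, and CCCNNGGG was not found in that 300-base window. The rest of the peak, its centre included, lay outside the window and was not searched.

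Libraries held 16118136 to 42076718 exon counts, and the scarcest reading of any of the 9 genes was 263 counts. Ebf1 stood at 966 and 1102 CPM (counts scaled to library size) in WT and at 244 and 282 CPM in Ebf1-KO. The counts cover all exons of Ebf1, so the remaining reads do not check that label. Pax5-KO libraries held 315 and 241 CPM of Ebf1, Ebf1-KO+Ebf1 libraries 857 and 893, and Pax5-KO+Ebf1 libraries 1644 and 1483. Ebf1 read 252 and 256 CPM in Ebf1-KO+Pax5 and 488 and 589 CPM in Pax5-KO+Pax5. Pax5 read 412 and 333 CPM in WT, 2.24 and 2.49 CPM in the Ebf1-KO libraries, and 20.1 and 12.3 CPM for Pax5-KO. With the Pax5 vector it read 429 and 399 CPM in Ebf1-KO cells and 746 and 440 CPM in Pax5-KO cells. With the Ebf1 vector it read 37.2 and 33.1 CPM in Ebf1-KO cells and 9.61 and 9.07 CPM in Pax5-KO cells. Summed over 11 B-lineage markers, Ebf1 and Pax5 among them, WT libraries held 11150 and 10523 CPM, Ebf1-KO libraries 537 and 592, and Pax5-KO libraries 2114 and 2150. Summed over 12 myeloid markers, WT held 110.3 and 67.0 CPM, Ebf1-KO 788 and 855, Pax5-KO 543 and 669, and Pax5-KO+Pax5 148 and 169. Most of the WT sum was Spi1, at 81.6 and 40.2 CPM, and Itgam, at 23.3 and 23.2. In Pax5-KO+Pax5 Spi1 read 37.3 and 25.9 CPM and Itgam 11.6 and 13.2, so other markers made up more of that sum. The 10 T-lineage markers summed to 39.7 and 22.5 CPM in WT, 363 and 459 CPM for Ebf1-KO, 508 and 592 CPM for Pax5-KO, and 129 and 119 CPM for Pax5-KO+Pax5. The 10 natural killer and innate lymphoid markers summed to 2.95 and 6.01 CPM for WT, 251 and 304 for Ebf1-KO, and 433 and 475 for Pax5-KO. The 11 stromal markers, for the OP9 cells, summed to 233 to 620 CPM over all libraries, with 4 to 9 of them at 0 counts in any library. Vim, which is not particular to stroma, made up 232 to 547 CPM of these sums, and Dcn was at 0 in every library. Without Vim the sums were 6.01 and 4.69 CPM for WT, 65.2 and 72.8 for Ebf1-KO, 80.7 and 92.0 for Ebf1-KO+Pax5, and 9.58 and 14.4 for Pax5-KO, and Pdgfrb alone read 58.1 and 63.3 CPM in Ebf1-KO. In such bulk samples fewer cells of a type and less RNA per cell cannot be told apart, and the part of other cell types in the results on the PI3K genes was not tested.

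All levels are CPM after TMM scaling, given with replicate 1 before replicate 2. Adjusted p means the Benjamini-Hochberg adjusted p of edgeR's quasi-likelihood test over all 14550 genes, with a threshold of 0.05, from 1 fit over the 7 groups. In the count table, the column names of all 7 libraries numbered 1 end in one date-like code and those of all 7 numbered 2 in another, and what the code marks is not given. A second fit with the replicate number as a block therefore holds that code constant, and its adjusted p is given where it changes a call. Each code has 1 library of every group, so no test within a code was possible. In a test of any difference among the 7 groups, 8 of the 9 genes passed, and 27.2% of all tested genes did. Akt1 did not (adjusted p = 0.163, and 0.0492 with the block). Across group means the ranges of the 9 genes had a median of 1.59 on the log2 scale, against 1.48 over all tested genes.

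Pik3cd, the p110δ gene (NM_008840, chromosome 4, 149649168 to 149698708, minus strand), read 699 and 719 CPM in WT and 245 and 272 in Ebf1-KO. Ebf1-KO+Ebf1 libraries gave 455 and 411 CPM, and Ebf1-KO+Pax5 libraries 349.6 and 282 CPM. Pax5-KO libraries gave 766 and 979 CPM, Pax5-KO+Ebf1 libraries 652 and 684, and Pax5-KO+Pax5 libraries 429 and 428. The libraries of each group lay apart from those of the next group in the order of means, except that Ebf1-KO+Ebf1 and Pax5-KO+Pax5 overlapped. Pik3cd was lowest in Ebf1-KO and highest in Pax5-KO, a ratio of means of 3.37 (adjusted p over the 7 groups 3.02e-05).

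Pik3cg, the p110γ gene (NM_020272, chromosome 12, 32173397 to 32208470, minus strand), was ordered differently. WT libraries gave 116 and 93.6 CPM, Ebf1-KO libraries 156 and 174, Ebf1-KO+Ebf1 libraries 146 and 161, and Ebf1-KO+Pax5 libraries 288 and 342. The Pax5-KO libraries gave 205 and 215 CPM, those of Pax5-KO+Ebf1 211 and 227, and those of Pax5-KO+Pax5 102 and 107. Ebf1-KO+Pax5 stood above every other group, while WT and Pax5-KO+Pax5 were the lowest and overlapped each other.

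Pik3r1, the p85α gene (NM_001077495, chromosome 13, 101680761 to 101768217, minus strand), fell into a high and a low set of groups. It read 181 and 202 CPM in WT and 156 and 224 in Pax5-KO+Pax5. The other 5 groups read from 324 CPM, in Ebf1-KO+Pax5, to 515, in Pax5-KO. Among those 5, the 4 without vector-borne Pax5 overlapped their neighbours in the order of means.

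Pik3r5, the p101 gene (NM_177320, chromosome 11, 68432125 to 68497846, plus strand), stood on opposite sides of WT in the knockouts. WT libraries stood at 97.3 and 87.5 CPM, Ebf1-KO libraries at 39.4 and 58.5, Ebf1-KO+Ebf1 libraries at 47.8 and 53.8, and Ebf1-KO+Pax5 libraries at 51.3 and 45.9. Pax5-KO libraries stood at 247 and 196 CPM, Pax5-KO+Ebf1 libraries at 125 and 174, and Pax5-KO+Pax5 libraries at 94.9 and 94.8. The 3 Ebf1-KO groups overlapped each other and lay below WT, and Pax5-KO lay above all other groups.

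Pik3ap1, the BCAP gene (NM_031376, chromosome 19, 41274218 to 41385070, minus strand), was the most variable of the 9 genes, with a ratio of 7.53 between the highest and lowest group mean. It read 150.5 and 129 CPM in WT, above every other library. Ebf1-KO libraries had 29.1 and 32.7 CPM, Ebf1-KO+Ebf1 libraries 31.9 and 31.2, and Ebf1-KO+Pax5 libraries 62.7 and 54.4. Pax5-KO libraries had 35.4 and 24.7 CPM, Pax5-KO+Ebf1 libraries 15.8 and 21.3, and Pax5-KO+Pax5 libraries 63.9 and 64.0. Both groups given Pax5 therefore stood between WT and the groups without it.

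Inpp5d, the SHIP1 gene (NM_010566, chromosome 1, 87620312 to 87720510, plus strand), was lowest in Ebf1-KO. It read 119 and 151 CPM there against 258 and 241 in WT. Levels were 239 and 238 CPM for Ebf1-KO+Ebf1 and 231 and 247 CPM for Ebf1-KO+Pax5. They were 255 and 244 CPM for Pax5-KO, 288 and 406 for Pax5-KO+Ebf1, and 291 and 309.5 for Pax5-KO+Pax5. No library outside Ebf1-KO read below 231 CPM.

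Pik3ip1 (NM_178149, chromosome 11, 3330731 to 3342971, plus strand) read 29.0 and 42.1 CPM in WT. Ebf1-KO libraries had 25.4 and 32.9 CPM, those of Ebf1-KO+Ebf1 23.3 and 20.3, and those of Ebf1-KO+Pax5 46.4 and 54.1. Pax5-KO libraries had 34.2 and 34.2 CPM, those of Pax5-KO+Ebf1 34.0 and 18.3, and those of Pax5-KO+Pax5 16.9 and 14.3. Vector-borne Pax5 thus went with the highest level in Ebf1-KO cells and the lowest in Pax5-KO cells. Its test over the 7 groups (adjusted p = 0.0266) missed the threshold on leaving out any 1 of 7 libraries, with 0.118 at the most, without Pax5-KO+Pax5 replicate 2.

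Akt1 (NM_009652, chromosome 12, 112653821 to 112674276, minus strand) and Akt2 (NM_001110208, chromosome 7, 27591552 to 27640826, plus strand) encode kinases that bind PIP3. Akt1 was lowest in Ebf1-KO+Pax5, at 51.7 and 57.5 CPM, against 62.2 to 114.5 in the other 12 libraries. Akt2 was highest in that same group, at 96.0 and 87.2 CPM, against 27.0 to 64.0 elsewhere. The test of Akt2 over the 7 groups (adjusted p = 0.0376) missed the threshold on leaving out any 1 of 11 libraries, at 0.168 without Ebf1-KO+Pax5 replicate 1.

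**Figure D1:**
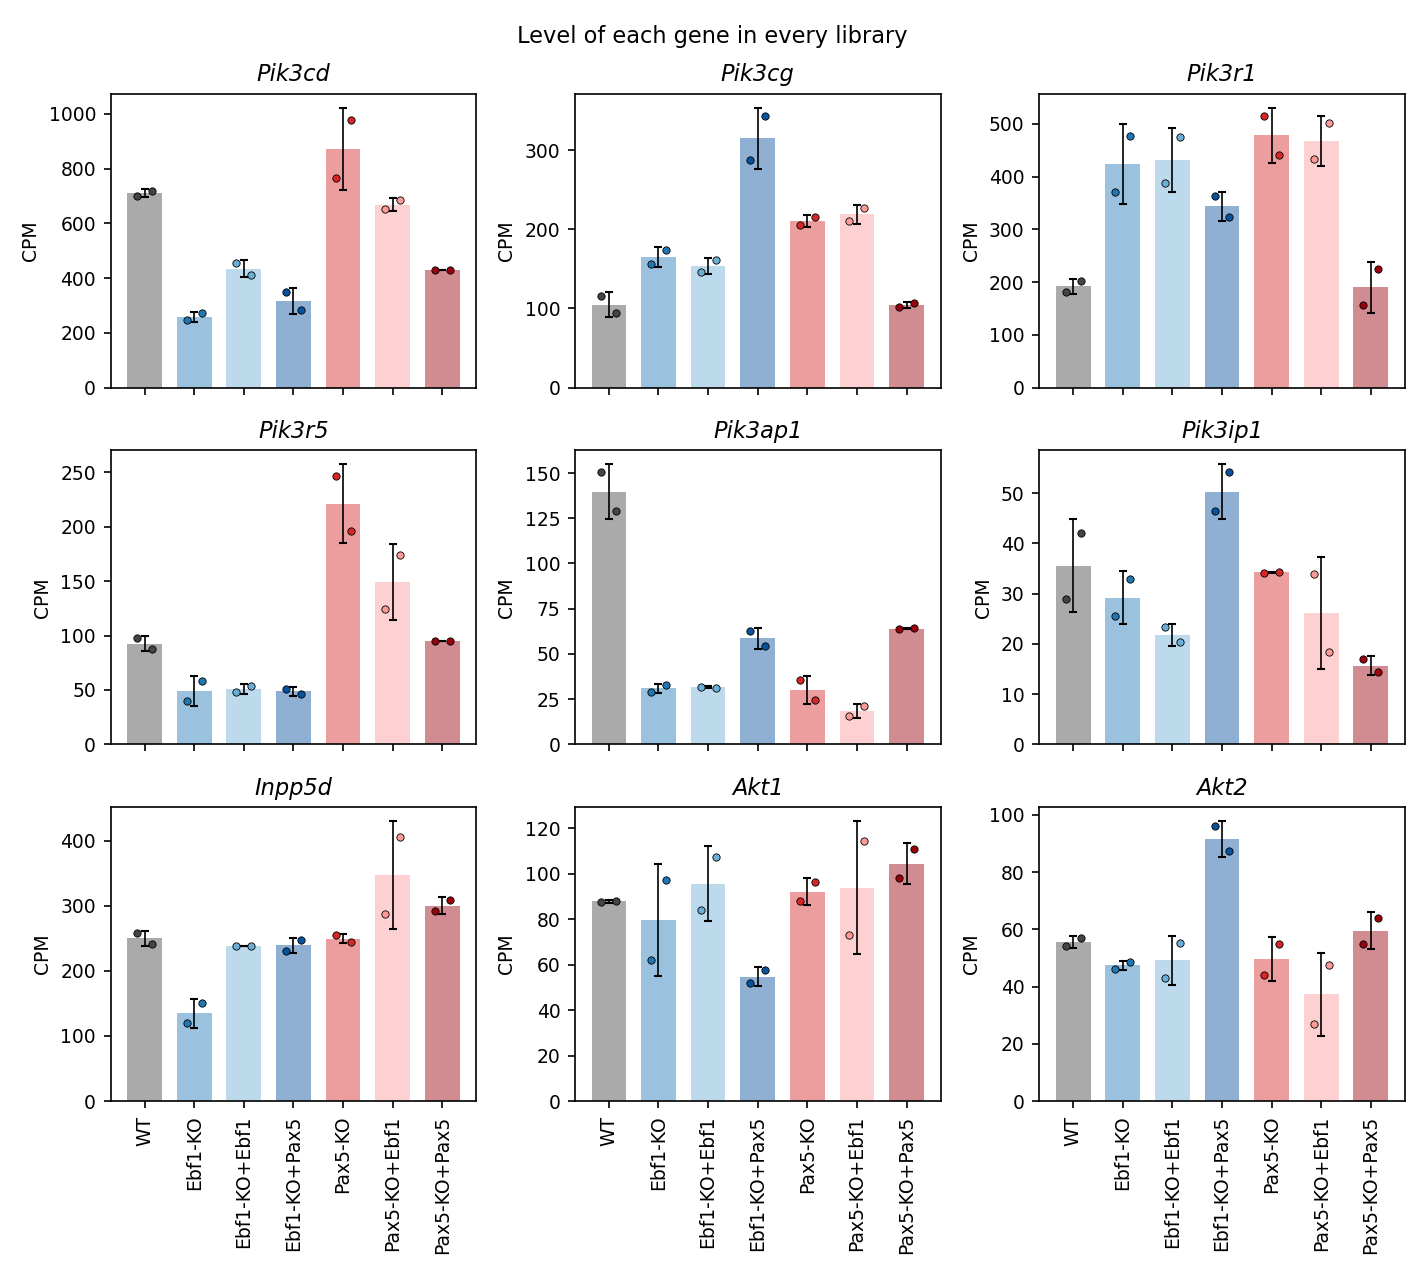
CPM of each gene (vertical axis, linear, from 0) in the 7 groups (horizontal axis), with points for libraries, bars for means and whiskers for the SD of 2 libraries. Pik3ap1 is highest in WT at 150.5 and 129 CPM, Inpp5d is lowest in Ebf1-KO at 119 and 151, and Pik3cg is highest in Ebf1-KO+Pax5 at 288 and 342.

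Loss of Ebf1 went with lower Pik3ap1, Pik3cd, Pik3r5 and Inpp5d and with higher Pik3r1 and Pik3cg. Of the 9 genes, 6 passed the test against WT, 2 higher and 4 lower, where 14.7% of all tested genes passed, 8.02% higher and 6.65% lower. Pik3ap1 fell by 2.18 on the log2 scale (SE 0.26, adjusted p = 3.44e-05) and Pik3cd by 1.46 (SE 0.19, adjusted p = 6.28e-05). Pik3r1 rose by 1.14 (SE 0.22, adjusted p = 0.00201). These 3 calls held on leaving out each of the 4 libraries. Inpp5d fell by 0.89 (SE 0.20, adjusted p = 0.00644), Pik3r5 fell by 0.92 (SE 0.24, adjusted p = 0.0171) and Pik3cg rose by 0.66 (SE 0.19, adjusted p = 0.0270). Inpp5d missed the threshold without Ebf1-KO replicate 1 (adjusted p = 0.109). Pik3r5 missed it without WT replicate 1 (0.0986), WT replicate 2 (0.0560) or Ebf1-KO replicate 1 (0.221). Pik3cg missed it without WT replicate 2 (0.293) and without either Ebf1-KO library (0.0699 for replicate 1 and 0.231 for replicate 2), and with no filter on low counts (0.0603). The 3 genes that did not pass, Pik3ip1, Akt1 and Akt2, differed by −0.28, −0.14 and −0.23, with a 95% interval of −0.70 to 0.42 for Akt1. The median over the 9 genes was −0.28, against 0.03 over all tested genes.

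Loss of Pax5 shared the low Pik3ap1 and the high Pik3r1 and Pik3cg with loss of Ebf1, but Pik3r5 was higher than in WT and Pik3cd did not pass the test. The comparisons use the same WT libraries. Against WT, 4 of the 9 genes passed, 3 higher and 1 lower, where 13.6% of all tested genes passed, 8.65% higher and 5.00% lower. Pik3r1 rose by 1.32 on the log2 scale (SE 0.22, adjusted p = 0.000775), Pik3r5 by 1.26 (SE 0.24, adjusted p = 0.00239) and Pik3cg by 1.01 (SE 0.19, adjusted p = 0.00191). Pik3ap1 fell by 2.22 (SE 0.26, adjusted p = 3.58e-05). All 4 calls held on leaving out each of the 4 libraries and under every other setting tried. Pik3cd differed by 0.30 (95% interval −0.09 to 0.69), and the 95% interval of Inpp5d was −0.42 to 0.42.

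The knockouts were also compared with each other. Pik3r5, Pik3cd and Inpp5d were lower in Ebf1-KO than in Pax5-KO, and none of the 9 genes was called higher, where 4.10% of all tested genes passed in either direction, 1.15% higher and 2.94% lower. Pik3r5 differed by −2.18 on the log2 scale (SE 0.25, adjusted p = 6.52e-05) and Pik3cd by −1.75 (SE 0.19, adjusted p = 3.84e-05), and both calls held without each library. Inpp5d differed by −0.89 (SE 0.20, adjusted p = 0.0171). It missed the threshold without Ebf1-KO replicate 1 (0.285), Pax5-KO replicate 1 (0.0929) or Pax5-KO replicate 2 (0.0889). Pik3ap1 differed by 0.04 between the knockouts (95% interval −0.50 to 0.59).

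Returning Ebf1 to Ebf1-KO cells went with higher Inpp5d and Pik3cd. These 2 of the 9 genes passed, both higher, where 2.97% of all tested genes passed, 2.21% higher and 0.763% lower. Inpp5d rose by 0.82 on the log2 scale (SE 0.20, adjusted p = 0.0366) and Pik3cd by 0.74 (SE 0.18, adjusted p = 0.0426). Neither call held on leaving out any 1 of the 4 libraries, where the adjusted p ran from 0.0706 to 0.515 for Inpp5d and from 0.152 to 0.434 for Pik3cd. Pik3ap1 differed by 0.03 (95% interval −0.52 to 0.57), Pik3r1 by 0.02 and Pik3r5 by 0.05. Against WT, these cells differed in 4 genes, where 11.2% of all tested genes passed, 6.94% higher and 4.22% lower. Pik3ap1 was lower by 2.15 (a log2 fold change of −2.15, SE 0.26, adjusted p = 6.14e-05) and Pik3r1 higher by 1.17 (SE 0.22, adjusted p = 0.00231). Pik3cd and Pik3r5 differed from WT by −0.71 (adjusted p = 0.0212) and −0.86 (adjusted p = 0.0309). Those last 2 calls were lost on leaving out any 1 of the 4 libraries, at 0.0803 to 0.206 and 0.0937 to 0.226. Inpp5d differed from WT by −0.07 (95% interval −0.49 to 0.35). Pik3cg differed from WT by 0.55 (adjusted p = 0.0742), and passed with the replicate block (0.0459) and in DESeq2 (0.0351). With Ebf1, 10 of the 11 B-lineage markers were called higher than in Ebf1-KO, and without Ebf1 and Pax5 themselves the list summed to 3618 and 3941 CPM, against 291 and 308. The myeloid sum was 422 and 444 CPM and the natural killer and innate lymphoid sum 120 and 104 CPM, with 1 of 12 and 3 of 9 tested markers called lower and 1 of those 9 higher. The part of these markers in the differences was not tested.

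Pax5 put into Ebf1-KO cells went with higher Pik3cg and Inpp5d. These 2 of the 9 genes passed, both higher, where 4.08% of all tested genes passed, 3.15% higher and 0.935% lower. Pik3cg rose by 0.93 on the log2 scale (SE 0.19, adjusted p = 0.00993). It missed the threshold without Ebf1-KO replicate 1 (0.192), Ebf1-KO replicate 2 (0.0551) or Ebf1-KO+Pax5 replicate 2 (0.128). Inpp5d rose by 0.82 (SE 0.20, adjusted p = 0.0311), and missed it on leaving out any 1 of the 4 libraries (0.0577 to 0.380) and in a fit of these 2 groups alone (0.0795). Pik3ap1 and Akt2 differed by 0.92 (adjusted p = 0.0598) and 0.95 (adjusted p = 0.0750), and both were called with the replicate block (0.0442 and 0.0337) and by DESeq2 (0.00536 and 0.0107). The median over the 9 genes was 0.78, against −0.01 over all tested genes. The 11 B-lineage markers had 7 called higher and 1 lower, and without Ebf1 and Pax5 themselves they summed to 716 and 750 CPM, against 291 and 308 in Ebf1-KO. The natural killer and innate lymphoid markers summed to 435 and 427 CPM, against 251 and 304. The myeloid sum was 751 and 789 CPM and the T-lineage sum 362.5 and 385 CPM. None of the myeloid, T-lineage or natural killer markers was called, and the part of these cell types was not tested.

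Pax5 returned to Pax5-KO cells went with lower Pik3r1, Pik3r5, Pik3cd and Pik3cg and higher Pik3ap1. Of the 9 genes 5 passed, 1 higher and 4 lower, where 4.03% of all tested genes passed, 1.64% higher and 2.40% lower. Pik3r1 fell by 1.33 on the log2 scale (SE 0.22, adjusted p = 0.00246), Pik3r5 by 1.22 (SE 0.24, adjusted p = 0.00811), Pik3cd by 1.03 (SE 0.19, adjusted p = 0.00455) and Pik3cg by 1.01 (SE 0.19, adjusted p = 0.00525). Pik3ap1 rose by 1.09 (SE 0.26, adjusted p = 0.0249). Without Pax5-KO+Pax5 replicate 1 none of the 5 passed, at 0.0515 for Pik3r1, 0.0874 for Pik3r5, 0.0543 for Pik3cd, 0.0788 for Pik3cg and 0.135 for Pik3ap1. Without replicate 2 of that group Pik3r1 alone passed, and the others lay at 0.0911, 0.0565, 0.0620 and 0.173 in the same order. Without Pax5-KO replicate 2, Pik3cd (0.0593) and Pik3ap1 (0.340) were lost, and without Pax5-KO replicate 1, Pik3r5 (0.0812). Pik3ip1 differed by −1.13 (adjusted p = 0.0925), and it was called by DESeq2 (0.0200) and in a fit of these 2 groups alone (0.0271). The markers of other cells moved in the same comparison. Of the myeloid markers 4 of 12 were called lower, of the T-lineage markers 4 of 9 and of the natural killer and innate lymphoid markers 3 of 9, with the last list at 129.5 and 95.7 CPM against 433 and 475 in Pax5-KO. Of the B-lineage markers 9 of 11 were called higher, and without Ebf1 and Pax5 they summed to 5624 and 6381 CPM, against 1778 and 1896. Their part in the differences of the PI3K genes was not tested.

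Pax5-KO cells with Pax5 were also compared with WT. Pik3cg, Pik3r1 and Pik3r5, which had been called higher in Pax5-KO, differed from WT by −0.01 (95% interval −0.40 to 0.39), −0.01 (−0.47 to 0.45) and 0.04 (−0.47 to 0.55) on the log2 scale. Pik3ap1 and Pik3cd were lower than in WT, and these 2 of the 9 genes passed, where 7.13% of all tested genes passed, 4.82% higher and 2.31% lower. Pik3ap1 differed by −1.13 (SE 0.26, adjusted p = 0.0143) and missed the threshold without WT replicate 1, Pax5-KO+Pax5 replicate 1 or Pax5-KO+Pax5 replicate 2, at 0.0996 to 0.126. Pik3cd differed by −0.73 (SE 0.18, adjusted p = 0.0266) and missed it on leaving out any 1 of the 4 libraries (0.0951 to 0.180). Pik3ip1 differed by −1.18 (adjusted p = 0.0516) and passed under all 6 settings that kept every library, at 0.00732 to 0.0464, with 0.0436 for the replicate block. Markers of other cells still differed from WT. Called higher were 6 of 12 myeloid, 5 of 9 T-lineage and 4 of 9 natural killer and innate lymphoid markers, and 0 were lower. Of the B-lineage markers 3 of 11 were called lower and 0 higher. The part of these markers was not tested.

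Extra Ebf1 in Pax5-KO cells changed none of the 9 genes past the threshold of edgeR's test, and DESeq2 called 0, where 3.60% of all tested genes passed, 1.75% higher and 1.85% lower. At an unadjusted p under 0.05, 3 of the 9 were past it, namely Pik3r5, Pik3ap1 and Inpp5d, and so were 20.7% of all tested genes. The difference for Pik3ap1 was −0.69 (95% interval −1.24 to −0.14, adjusted p = 0.151), and without Pax5-KO+Ebf1 replicate 2 it passed at an adjusted p of 0.0482. In that fit 2228 genes in all passed, against 524 with every library, and the median of all genes was −0.20, against −0.04. Pik3r5 differed by −0.57 (adjusted p = 0.194) and Inpp5d by 0.48 (adjusted p = 0.191). Taken by replicate number, Pik3r5 differed by −0.99 and −0.17 and Inpp5d by 0.18 and 0.73. The 2 libraries of Pax5-KO+Ebf1 had the lowest Pearson r of log2 CPM, 0.895 against 0.934 to 0.971 in the other groups. Of the B-lineage markers 4 of 11 were called higher and 1 lower. Of the natural killer and innate lymphoid markers 1 of 9 was called higher and 4 lower. The part of these markers was not tested.

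**Figure D2:**
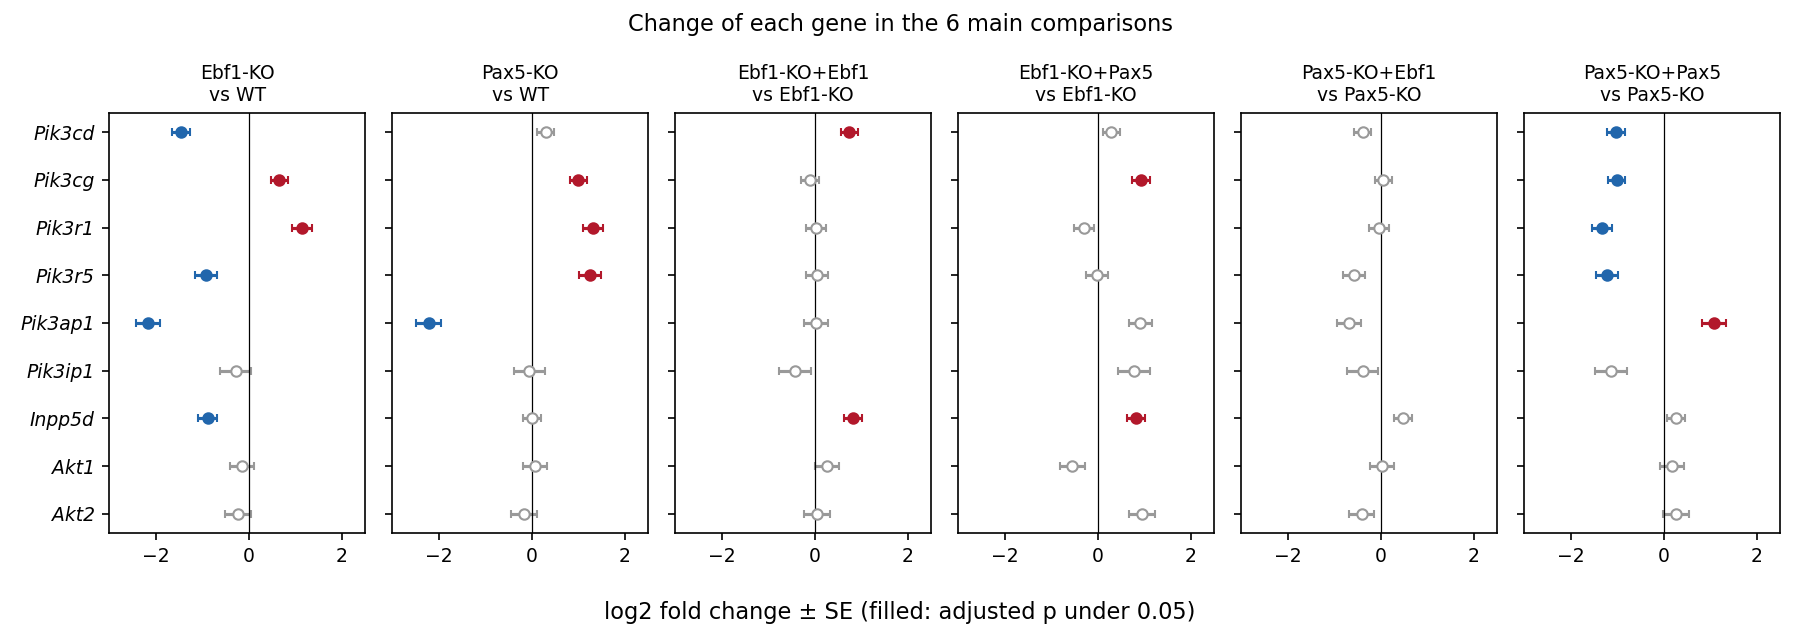
Log2 fold change of each gene (horizontal axis, whiskers 1 SE) in the 6 main comparisons, red for higher, blue for lower and grey for not past the threshold. Pik3ap1 lies near −2.2 in both knockouts, and the Pax5-KO cells with Pax5 have 4 of their 5 called genes below 0.

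The effect of the Pax5 vector differed between the knockouts for Pik3cg, Pik3ip1 and Pik3cd. Tested as the effect in Ebf1-KO minus that in Pax5-KO, these 3 of the 9 genes passed, all higher, where 3.16% of all tested genes passed, 2.43% higher and 0.735% lower. For Pik3cg the effects were 0.93 and −1.01, a difference of 1.94 (SE 0.26, adjusted p = 0.00112) that held without each of the 8 libraries. For Pik3ip1 they were 0.78 and −1.13, a difference of 1.91 (SE 0.48, adjusted p = 0.0445) that was lost without any 1 of the 8 libraries (0.0699 to 0.229). For Pik3cd they were 0.29 and −1.03, a difference of 1.31 (SE 0.26, adjusted p = 0.0131). It was lost without Ebf1-KO replicate 1 (0.0784), Pax5-KO replicate 2 (0.0674), or Pax5-KO+Pax5 replicate 1 (0.0561) or 2 (0.0685). For Pik3ap1 the effects were 0.92 and 1.09, a difference of −0.17 with a 95% interval of −0.94 to 0.59. Pik3r5 and Pik3r1 missed the threshold, with differences of 1.21 (adjusted p = 0.0697) and 1.03 (adjusted p = 0.0901). Both were called with the replicate block (0.0429 and 0.0318), with no filter on low counts (0.0268 and 0.0344) and by DESeq2 (0.00738 and 0.0110). Pik3r5 was also called in a fit of the compared groups alone (0.0470) and without Ebf1-KO replicate 2 (0.0439). The effect of the Ebf1 vector was not called different for any of the 9 genes by edgeR, where 0.612% of all tested genes were, 0.577% higher and 0.0344% lower, and 1 had an unadjusted p under 0.05, as did 8.38% of all tested genes. That gene was Pik3cd, with effects of 0.74 and −0.39 and a difference of 1.13 (adjusted p = 0.0838). It was called by DESeq2 (0.00484), with the replicate block (0.0401), with no filter (0.0415) and without Pax5-KO+Ebf1 replicate 2 (0.0359), where 685 genes in all were called against 89.

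**Figure D3:**
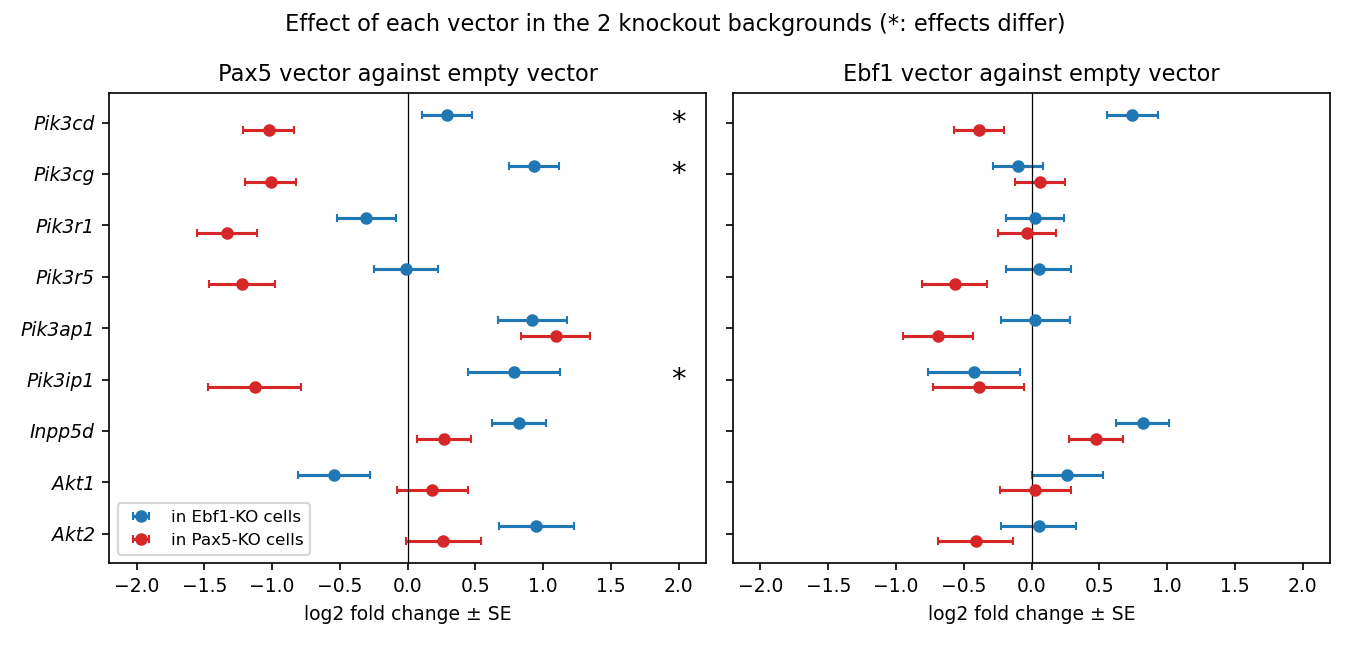
Log2 fold change (horizontal axis, whiskers 1 SE) of each gene with the Pax5 vector (left) and the Ebf1 vector (right), in Ebf1-KO cells in blue and Pax5-KO cells in red. Stars mark Pik3cd, Pik3cg and Pik3ip1, whose Pax5 effects differed by 1.31, 1.94 and 1.91.

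Levels of different genes were compared per kb of the deposited gene length, as FPKM. Among the 4 class I catalytic subunits, Pik3cd made up 80.1 and 80.5% of the summed FPKM in WT and 57.8 and 59.3% in Ebf1-KO. Pik3cg made up 9.87 and 7.79% in WT, 27.3 and 28.3% in Ebf1-KO, and 33.2 and 41.9% in Ebf1-KO+Pax5. WT libraries had 8.11 and 10.3 times as much Pik3cd as Pik3cg FPKM, Ebf1-KO libraries 2.12 and 2.10 times, and Ebf1-KO+Pax5 libraries 1.63 and 1.11 times. Pik3cd remained the larger of the pair in all 14 libraries. The FPKM of Pik3r1 was 0.190 and 0.206 times that of Pik3cd in WT and 1.11 and 1.29 times in Ebf1-KO, where Pik3r1 was the larger of the pair. Akt1 exceeded Akt2 by 2.27 to 4.59 times in 12 libraries, while in Ebf1-KO+Pax5 the ratio was 0.912 and 1.12.

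**Figure D4:**
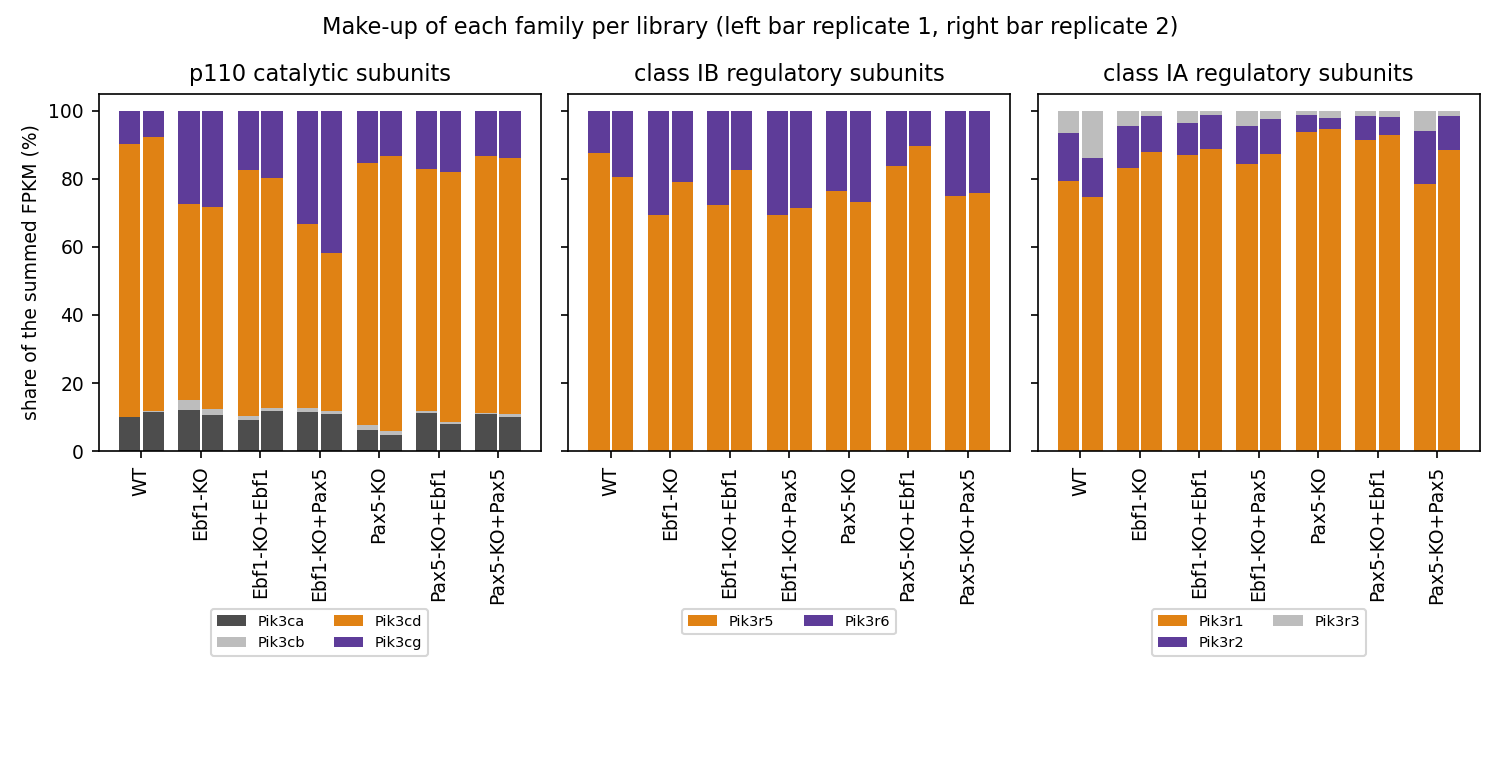
Share of the summed FPKM (vertical axis, percent) held by each gene of 3 families, for each library of the 7 groups. Pik3cd makes up 80.1 and 80.5% of the catalytic subunits in WT and 54.1 and 46.3% in Ebf1-KO+Pax5.

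Other genes of the pathway were read from 6 lists of 69 genes, of which 68 were tested. In Ebf1-KO against WT 6 were higher and 28 lower, where 8.02% of all tested genes were higher and 6.65% lower. In Pax5-KO 7 were higher and 22 lower, where 8.65% and 5.00% of all tested genes were. Of 16 receptors and adaptors, 10 were lower in Ebf1-KO and 8 in Pax5-KO, and none was higher. They included Syk, the kinase below the pre-B cell receptor, at 656 ± 5.19 CPM in WT, 197 ± 36.1 in Ebf1-KO and 202 ± 11.4 in Pax5-KO (SD, n = 2). Of 14 genes of the FOXO list, 8 were lower in Ebf1-KO and 7 in Pax5-KO. Foxo1 stood at 613 ± 35.6 CPM in WT, 22.1 ± 1.23 in Ebf1-KO and 197 ± 10.4 in Pax5-KO. Of 13 genes listed as phosphatases and brakes, 4 were higher in Ebf1-KO (Inpp4a, Dok2, Trat1 and Sirpa) and 3 lower (Phlpp1, Dok3 and Cd22). Dok2 was up by 2.10 on the log2 scale (SE 0.38, adjusted p = 0.00120) and Dok3 down (−2.55, SE 0.42, adjusted p = 0.000582). Whether each listed gene acts as a brake in these cells was not tested. Of 16 tested genes of the AKT and mTOR list, 1 was higher and 4 lower in Ebf1-KO, while Pax5-KO had 2 higher and 2 lower. Of 4 class II and III genes, 2 were lower in Ebf1-KO and 1 in Pax5-KO. Of the 5 other class I subunits, Pik3cb was higher and Pik3ca lower in both knockouts.

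With Pax5 in Ebf1-KO cells 20 of the 68 genes were higher and 1 lower, where 3.15% and 0.935% of all tested genes were. With Ebf1 in those cells 9 were higher and 0 lower, where 2.21% and 0.763% of all tested genes were. These comparisons share the Ebf1-KO libraries, and the difference between the counts was not tested. Of the 16 receptors and adaptors 10 were higher with Pax5, among them Syk (1.58, SE 0.23, adjusted p = 0.000836) and Cblb, a ubiquitin ligase (1.73, SE 0.19, adjusted p = 9.29e-05), and Il7r, the interleukin-7 receptor, was lower (−1.19, SE 0.20, adjusted p = 0.00312). In Pax5-KO cells 13 were higher and 1 lower with Pax5, where 1.64% and 2.40% of all tested genes were, and 5 were higher and 5 lower with Ebf1, where 1.75% and 1.85% were. The other class IB regulatory subunit, Pik3r6, lies next to Pik3r5, and was higher in Pax5-KO than in WT (2.08, SE 0.36, adjusted p = 0.00106). It was lower in Pax5-KO+Ebf1 than in Pax5-KO (−1.73, SE 0.35, adjusted p = 0.0147).

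The genes whose log2 CPM followed each of the 3 PI3K genes with the widest range most closely were named over the 14 libraries, which share their groups. For Pik3ap1 they were Rasl10a (Pearson r 0.957), Cd55 (0.951) and Rrm2b (0.949). For Pik3r5 they were Gm2a (0.926), Diaph2 (0.915) and 1700011H14Rik (0.915), and for Pik3cd Cacnb2 (0.897), Rcbtb1 (0.890) and Chst15 (0.885). Between Pik3cd and Pik3r5 r was 0.853, and between Pik3cd and Pik3cg −0.15.

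EBF1 peaks lay near all 9 genes in line 230-238. The authors' list held 17230 peaks of 320 bases, and 46 of them had their centre inside one of the genes or within 50 kb of an end, 22 of them inside. At least 1 such peak was found for 9 of 9 genes, against 80.6% of all tested genes, and a peak inside the gene for 7 of 9, against 34.9%. Most of the 9 genes are long, with spans of 12.2 to 111 kb against a median of 19.1 kb over tested genes, and longer genes have more room for a peak. Pik3ap1 had 10 peaks, Pik3cd and Pik3r5 9 each, Inpp5d 6, Akt2 4, Akt1 3, Pik3cg and Pik3ip1 2 each and Pik3r1 1. Heights below are the authors' normalized tag counts and folds their own ratios to control, with medians of 25.5 tags and 12.3-fold over the list.

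The tallest of the 46 peaks, of 296 tags and 154-fold over control, was centred 7.06 kb past the end of Pik3cd (chr4:149641946-149642266). Inside Pik3cd a peak of 100 tags lay 2.02 kb past the start. The next tallest, of 245 tags and 146-fold, lay 0.904 kb past the end of Pik3r5 (chr11:68498590-68498910), and another of 112 tags lay 0.209 kb from the start of the neighbouring Pik3r6. The start nearest to the peak of 245 tags was also that of Pik3r6, at 4.27 kb. The peak at the Pik3ap1 start, only partly shown in capitals above, was centred 345 bases upstream of the start in the count table. It had 127 tags (chr19:41385255-41385575). Akt2 had a peak of 30.0 tags centred 350 bases past its start, and such a peak within 1 kb of a start was found for 27.4% of tested genes. Inpp5d had a peak of 74.4 tags 1.83 kb past its start, Pik3ip1 one of 122 tags 1.83 kb past its start, and Pik3cg one of 104 tags 4.40 kb upstream of its start. The 1 peak of Pik3r1 had 25.0 tags and lay 16.4 kb past the gene end, and the peaks of Akt1 were 44.9 kb or more from its start. Some of the 46 peaks lay nearest the start of another gene. Those of Akt1 were nearest the starts of Cep170b or Adssl1. The tallest counted for Akt2, of 90.4 tags, lay 0.274 kb from the start of Map3k10, and 1 counted for Pik3cd lay 0.144 kb from that of Tmem201. Binding was measured in a transformed line that differs from the cells used for RNA, and the part of any peak in a gene's level was not tested.

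**Figure D5:**
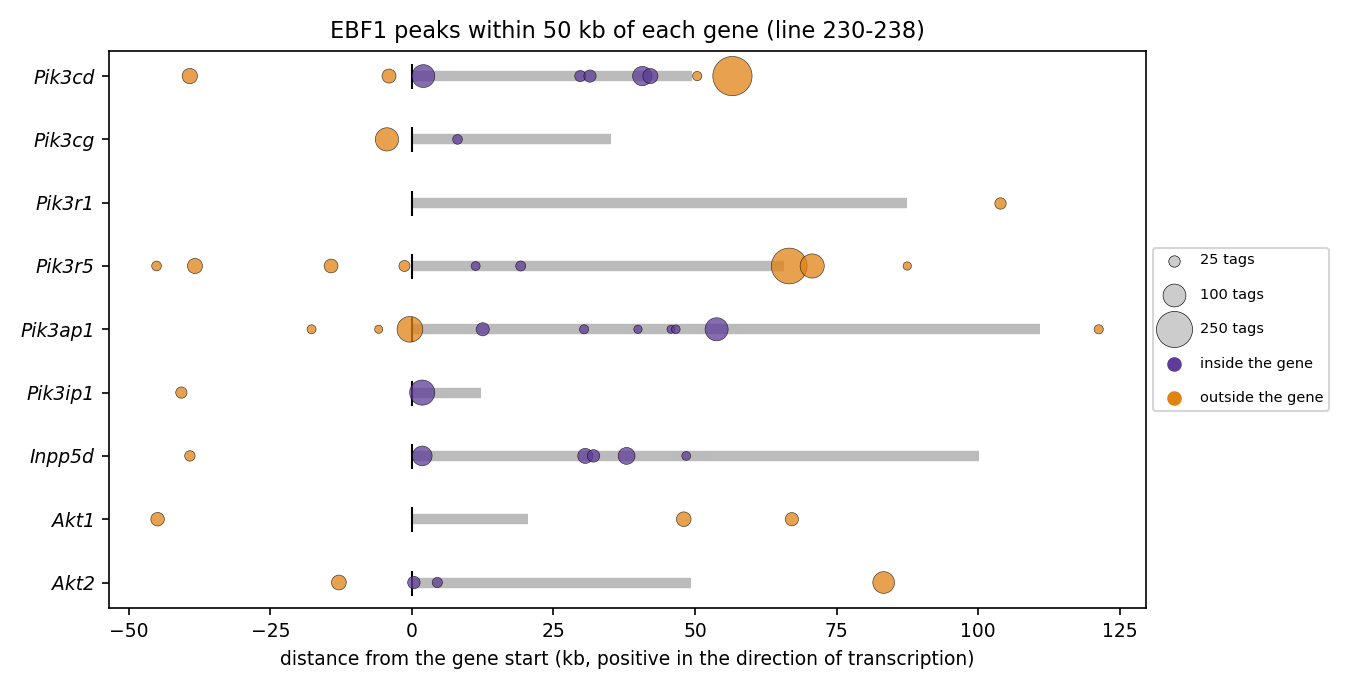
Position of EBF1 peaks within 50 kb of each gene (horizontal axis, kb from the gene start, positive in the direction of transcription), with grey bars for gene bodies and circle area for normalized tags. Pik3cd and Pik3r5 have their tallest peaks, of 296 and 245 tags, just past the gene end, and Pik3r1 has 1 peak.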

How the data were processed

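RNA was measured in 14 libraries and EBF1 binding in 2 immunoprecipitates with 1 input, and 7 PLAC-seq samples were not used here. The deposited table holds raw exon counts per gene and a gene length, per the file headers. The submitters' processing notes name STAR 2.6.0b-1, HOMER 4.8 and the mm10 build, and no strand setting is given in the sources used here. The authors' single peak list, made with HOMER per the file headers, gives normalized tags (a signal), a findPeaks score and a fold (a ratio) over control. It covers both immunoprecipitates, so replicate peaks could not be compared.

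Counts were scaled by TMM and tested with edgeR 4.0.16 in R 4.3.3, in 1 quasi-likelihood fit over 7 groups of 2 libraries, with 7 residual degrees of freedom and no replicate block. Each replicate number shares 1 code in the column names of the count table, so the fit with a replicate block also holds that code constant. Genes were filtered by filterByExpr, and p-values were adjusted by Benjamini-Hochberg over 14550 genes. FPKM is CPM per kb of the deposited length. The steps were tested on simulated data. A peak was counted as near a gene when its centre lay in the gene or within 50 kb. All 9 genes were tested in every comparison, and any not named for a comparison did not pass the threshold there. The genes and the pathway and marker lists were chosen with earlier results of these data known. Whether the 2 libraries of a group came from separate cultures is not given in the labels, so the spread behind each p-value may be technical. Alternatives were RLE scaling, no filter or a stricter filter, DESeq2 1.42.0, the compared groups alone, a replicate block and leaving out each library. Reads of Mir7023, Mir3470a and Mir6939, which overlap Pik3cd, Pik3ip1 and Akt1, cannot be told apart from theirs.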

Additional observations from a re-analysis of the deposited data

Results flagged for a closer look

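For 3 of the 9 genes the effect of vector-borne Pax5 differed between the Ebf1-KO and Pax5-KO cells by edgeR's test of the difference itself. The log2 effect in Ebf1-KO minus that in Pax5-KO was 1.94 for Pik3cg (adjusted p = 0.00112), 1.91 for Pik3ip1 (adjusted p = 0.0445) and 1.31 for Pik3cd (adjusted p = 0.0131). The Pik3cg difference passed without each library, the Pik3ip1 difference was lost without any 1 of the 8, and the Pik3cd difference was lost without any 1 of 4.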

How the results depend on the processing

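Of 99 gene and comparison pairs, 31 were called. Of these, 28 passed under every alternative that kept all libraries, 12 passed without each library, 7 were lost whichever library was left out, and 0 reversed. A further 9 were called only under an alternative. Leaving out 1 library gave 3 to 5 calls (6 with all) in Ebf1-KO against WT, 0 (2) with Ebf1 in Ebf1-KO, 0 to 1 (2) with Pax5 in Ebf1-KO, 0 to 1 (0) with Ebf1 in Pax5-KO and 0 to 4 (5) with Pax5 in Pax5-KO. It gave 2 (4) for Ebf1-KO with Ebf1 against WT, 0 to 1 (2) for Pax5-KO with Pax5 against WT, 2 to 3 (3) between knockouts, 1 to 3 (3) for the Pax5 effect, 0 to 1 (0) for the Ebf1 effect and 6 to 9 (8) over the 7 groups. RLE scaling left 1 call with Ebf1 in Ebf1-KO. DESeq2 gave 4 calls with Pax5 in Ebf1-KO, 5 for the Pax5 effect and 1 for the Ebf1 effect, where it called 1199, 1147 and 224 genes in all, against 594, 460 and 89 in edgeR. No filter gave 5 and 1 for those effects, with 940 and 269 genes in all, and the compared groups alone gave 1 with Pax5 in Ebf1-KO. For Pax5-KO with Pax5 against WT each of these gave 3. The cause was not tested. The replicate block gave 4 calls with Pax5 in Ebf1-KO, 5 for the Pax5 effect, 1 for the Ebf1 effect and 3 for Pax5-KO with Pax5 against WT, with 916, 737 and 108 genes in all for the first 3. It changed 8 calls on the 9 genes, all of them gained and given beside their results. The difference of replicate 2 from replicate 1, over all tested genes, correlated over 0.1 in 13 of 21 pairs of groups. Pairs without WT stood at 0.08 to 0.24 and those with WT at −0.06 to 0.01. Each number shares a code in the column names, and what lies behind these correlations was not tested. They do not show by themselves that the numbers pair the samples. Peaks near the 9 genes numbered 46, with 31 within 10 kb, 67 within 100 kb and 26 at or above the median fold. With 2 libraries a group, leaving out 1 rests on the spread of the other groups.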
